A study of Mus musculus with 22 samples.

Results

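The genes described here encode the proteasome, the protease that degrades ubiquitin-tagged proteins in every cell. They were taken as all protein-coding genes whose mouse symbols start with Psm, one letter from a to g and a number. The rule found 50 genes among the 49671 genes of the deposited tables, and 4 pseudogenes with matching symbols were left out. By role, 8 genes belong to the alpha ring and 7 to the standard beta ring. A further 4 encode inducible or tissue-specific catalytic subunits. The regulatory particle is represented by 6 ATPase genes and 11 non-ATPase genes. There were 6 genes for activators and an inhibitor and 7 for assembly chaperones. The remaining gene, Psmc3ip, encodes a meiotic recombination factor that only shares the symbol and is no proteasome part, which leaves 49 proteasome genes.

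The study profiled ribosome-bound RNA of outer hair cells, which amplify sound-evoked vibration in the cochlea, during postnatal development. All animals carried PrestinCreERT2/+;RiboTagHA/+, in which a tamoxifen-dependent Cre recombinase under control of the prestin gene (Slc26a5, the motor protein of outer hair cells) switches on an HA-tagged ribosomal protein. All also received tamoxifen, dosed by weight as 3 mg per 40 g before 21 days of age and 9 mg per 40 g from then on. The HA antibody pulled tagged ribosomes out of whole cochlea (IP, 11 libraries), and total RNA of whole cochlea without antibody was the input (11 libraries). Each fraction had 2 libraries at P8, P14, P28 and 6 weeks and 3 at 10 weeks; the study's design text gives P21 where the sample labels give P28, and the labels were followed. Replicates are independent biological samples per the design text, but the sources used here do not say how many animals made up each one. The input contains the outer hair cells too, and no library from mice without Cre was analysed here, so RNA bound without the tag was not measured.

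Libraries held 14978013 to 39907763 reads counted to genes. Reads assigned to no annotated gene made up 20.2% to 47.7% of the IP libraries and 11.1% to 20.4% of the input libraries, and the part of this difference in the results below was not tested. Of the 22 libraries 3 stood apart and are called libraries of low yield below. The second P8 input and the first P14 IP library had the fewest gene reads after scaling by TMM, with factors of 0.332 and 0.597. The second P28 IP library had the fewest genes at 1 scaled CPM or more. The name does not mean low sequencing depth. The second P8 input library had the most total reads, 71023032, and the second P28 IP library had 24692236 gene reads. Of 10 outer hair cell markers, 8 were higher in IP over all ages, beside 19% of all genes tested. Their summed level was 344 to 1466 scaled CPM in IP libraries and 126 to 296 scaled CPM in input libraries. At single ages fewer were called higher: 5 at P8, 2 at P14, 3 at P28, 2 at 6 weeks and 5 at 10 weeks. Among all genes tested the shares were 5.58%, 8.82%, 8.76%, 3.65% and 5.82%. Scaled CPM are CPM recomputed on reads in genes and scaled between libraries by TMM. Slc26a5 averaged 23.8 ± 27.2 scaled CPM in IP and 7.35 ± 4.27 scaled CPM in input (SD, n = 11 each) and was not called (limma, adjusted p = 0.204). A low level in a bulk library can come from fewer cells of a type or from less RNA per cell, and these cannot be told apart. IP libraries hold ribosome-bound RNA and input libraries total RNA. The part of a transcript bound to ribosomes thus also enters their comparison and was not measured.

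The proteasome is built from a barrel-shaped core and a regulatory cap. In the core, outer rings of alpha subunits gate the entry of substrates and inner rings of beta subunits carry the catalytic sites, with Psmb6, Psmb7 and Psmb5 providing the caspase-like, trypsin-like and chymotrypsin-like activities. The cap binds ubiquitin chains, removes them, and unfolds the substrate with its ATPase ring. In cells exposed to interferon, Psmb9, Psmb10 and Psmb8 can replace the standard catalytic subunits and form the immunoproteasome. When proteasome activity falls short, the transcription factor Nfe2l1 can raise many subunit genes together.

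Proteasome transcripts were lower in IP than in input across the complex. Over all ages, 37 of 50 genes were lower in IP, 1 was higher and 12 were not called by limma at an adjusted p under 0.05. Among all 20176 genes tested, 21.2% were called lower and 19% higher. The median log2 change, IP over input, was -1.09 over the 50 genes and 0.00 over all genes. The 49 proteasome genes together summed to 1547 ± 303 scaled CPM in IP and 3147 ± 425 scaled CPM in input (SD, n = 11 each). No IP library reached an input library on this sum, since the highest IP sum was 2109 scaled CPM and the lowest input sum was 2557 scaled CPM. This separation rests on the TMM scaling of 1 library: as an unscaled share of gene reads the 49 genes took 0.126% to 0.24% in IP libraries and 0.264% to 0.364% in 10 input libraries, but 0.0848% in the second P8 input library, below every IP library. Log2 changes were computed on log2(scaled CPM + 1), which understates the change of weakly expressed genes. All 50 genes passed the filter of 1 scaled CPM in at least 2 libraries. With CPM as deposited 27 genes were called, and Psma1, Psmc6, Psmd3, Psmd5, Psmd6, Psmd7, Psmd8, Psmd13, Psme3, Psmf1 and Psmg2 were no longer called lower. The share of all genes called on that scale was not set beside this count.

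**Figure D1:**
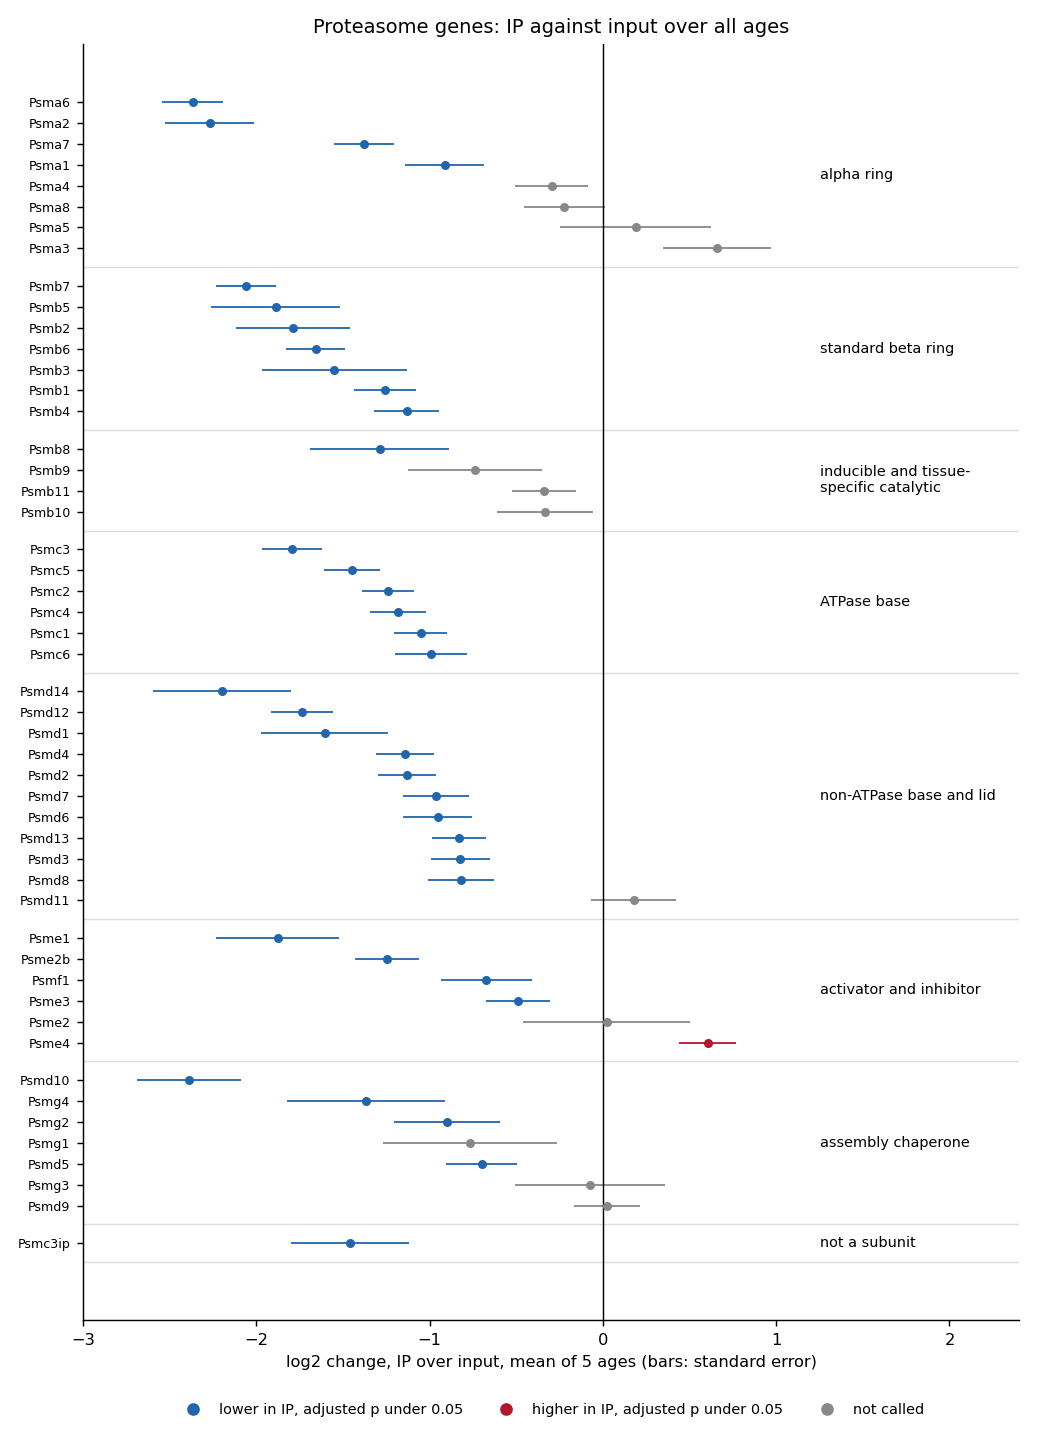
Log2 change of each of the 50 genes, IP over input, as the mean of 5 ages with its standard error, grouped by role. The 7 standard beta ring genes and the 6 ATPase genes all lie left of 0, and Psme4 is the single gene called higher.

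Separation between fractions was complete in many genes. In 22 of 50 genes, every IP library lay below every input library within each of the 5 ages, which was so for 6.42% of all genes tested. In 31 of 50 genes this held in 4 or more ages, as it did for 13.9% of all genes tested. In 0 of 50 genes did every IP library lie above every input library at all 5 ages, against 4.46% of all genes tested.

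Promoter windows from RefSeq (GRCm38.p6, 250 bases before to 50 bases after the annotated start) were found for 42 of the 50 genes. Both strands were searched for CCAAT, for TGANNNNGC, the core of the antioxidant response element bound by Nfe2l1 and Nfe2l2, and for the GC box GGGCGG. The element core was present in 23 of 42 windows (54.8%) and in 41.4% of all 27025 windows in the table. CCAAT was present in 15 of 42 (35.7%) against 37.9%, and the GC box in 23 of 42 (54.8%) against 35.9%. The median log2 change, IP over input, was -0.99 in the 23 genes with the element core and -1.13 in the 19 without it. Windows of 4 genes are shown to set the promoters of genes at both ends of the range side by side: Psma6 and Psmd10 have the lowest changes of the alpha ring and of the chaperones, Psmb5 encodes a catalytic subunit, and Psme4 is the gene that was higher. They lie at chr12:55383972-55384271 on the plus strand for Psma6, at chrX:140956662-140956961 on the minus strand for Psmd10, at chr14:54617946-54618245 on the minus strand for Psmb5 and at chr11:30771525-30771824 on the plus strand for Psme4. Each is written 5′ to 3′, with matches to CCAAT and to the element core, on either strand, in capitals; these 2 motifs share no base in the 4 windows.
Psma6: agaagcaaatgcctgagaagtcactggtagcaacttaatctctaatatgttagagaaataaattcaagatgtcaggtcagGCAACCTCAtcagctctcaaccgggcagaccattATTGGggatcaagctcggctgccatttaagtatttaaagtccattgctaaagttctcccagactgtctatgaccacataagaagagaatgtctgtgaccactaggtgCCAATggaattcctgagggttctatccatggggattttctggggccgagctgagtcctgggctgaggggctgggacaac
Psmd10: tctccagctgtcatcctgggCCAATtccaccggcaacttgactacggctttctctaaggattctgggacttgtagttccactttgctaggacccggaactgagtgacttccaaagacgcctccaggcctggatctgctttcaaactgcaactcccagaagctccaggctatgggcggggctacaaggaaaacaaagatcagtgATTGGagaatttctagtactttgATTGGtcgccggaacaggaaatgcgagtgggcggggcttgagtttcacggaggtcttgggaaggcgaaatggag
Psmb5: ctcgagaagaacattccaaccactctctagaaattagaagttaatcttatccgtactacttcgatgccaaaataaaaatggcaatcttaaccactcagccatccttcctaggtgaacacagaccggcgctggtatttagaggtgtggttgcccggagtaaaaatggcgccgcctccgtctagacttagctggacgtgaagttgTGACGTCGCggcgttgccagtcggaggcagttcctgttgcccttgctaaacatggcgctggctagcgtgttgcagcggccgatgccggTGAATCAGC
Psme4: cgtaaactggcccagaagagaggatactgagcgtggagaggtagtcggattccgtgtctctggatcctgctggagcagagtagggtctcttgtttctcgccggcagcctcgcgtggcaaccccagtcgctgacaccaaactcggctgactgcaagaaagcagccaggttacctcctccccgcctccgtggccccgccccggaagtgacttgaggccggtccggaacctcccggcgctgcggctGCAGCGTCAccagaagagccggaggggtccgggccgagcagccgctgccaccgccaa
The Psma6 window holds 2 CCAAT matches and 1 element core, the Psmd10 window 3 CCAAT matches and 0 cores, the Psmb5 window 2 cores and 0 CCAAT matches, and the Psme4 window 1 core and 0 CCAAT matches.

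The alpha ring, whose subunits close the entry channel of the core, was the least uniform group of the core. Of its 8 genes, 4 were lower in IP and 4 were not called. Psma6 (chr12:55384222-55418454, plus strand) had 8.69 to 29.8 scaled CPM in IP libraries (median 17.4, n = 11), against 76.0 to 131 scaled CPM in input libraries (median 91.8, n = 11). The 2 ranges did not overlap. Its level was 5.16-fold lower in IP (log2 change -2.37 ± 0.17 SE; limma, adjusted p = 8.04e-10). At the other end, Psma3 had 4.28 to 74.4 scaled CPM in IP (median 40.2), against 10.3 to 45.6 scaled CPM in input (median 19.8). The ranges overlapped, with 3 IP libraries above every input library and 1 below. Its log2 change was 0.66 ± 0.31 SE and was not called (limma, adjusted p = 0.0988). With all libraries, DESeq2 called Psma3 higher (log2 change 0.83, adjusted p = 0.0275), as did limma after quantile normalization (0.83, adjusted p = 0.0133). Its log2 change in limma was 0.98 without the first P14 IP library and 0.92 without the 3 libraries of low yield. Psma2, with a log2 change of -2.27, Psma7, with -1.38, and Psma1, with -0.91, were lower, whereas Psma4, at -0.30, and Psma5, at 0.19, were not called; without the libraries of low yield Psma4 was called lower (log2 change -0.55, adjusted p = 0.0283). Psma8, the alpha subunit of the testis, was not called at a log2 change of -0.22 and near the detection limit.

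All 7 genes of the standard beta ring were lower in IP, with log2 changes between -2.06 and -1.13. The trypsin-like subunit Psmb7 showed 19.1 to 48.1 scaled CPM in IP (median 32.6) and 73.2 to 265 scaled CPM in input (median 138), with no overlap. This was a 4.17-fold lower level (log2 change -2.06 ± 0.17 SE; limma, adjusted p = 4.22e-09). For the caspase-like subunit Psmb6 the IP libraries spanned 22.9 to 94.3 scaled CPM (median 36.5) and the input libraries 90.2 to 302 scaled CPM (median 111). Of the 11 IP libraries, 10 lay below every input library, and the first P14 IP library did not. Psmb6 was 3.16-fold lower in IP (log2 change -1.66 ± 0.17 SE; limma, adjusted p = 8.89e-08). The chymotrypsin-like subunit Psmb5, the main target of the drug bortezomib, ranged from 0.603 to 32.5 scaled CPM in IP (median 4.86) and from 8.29 to 55.1 scaled CPM in input (median 19.2). Its ranges overlapped across ages, but within each of the 5 ages all IP values were below all input values. Psmb5 was 3.70-fold lower in IP (log2 change -1.89 ± 0.37 SE; limma, adjusted p = 0.000303). The smallest change of the ring was that of Psmb4, a structural subunit, with 44.3 to 239 scaled CPM in IP (median 69.0) and 129 to 293 scaled CPM in input (median 155). Here the first P14 IP library, at 239 scaled CPM, was the single IP library within the input range, and the level was 2.19-fold lower in IP (log2 change -1.13 ± 0.19 SE; limma, adjusted p = 4.40e-05).

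Of the 4 inducible and tissue-specific catalytic genes, 1 was lower in IP and 3 were not called. Psmb8, the inducible counterpart of Psmb5, had 0.0354 to 5.56 scaled CPM in IP (median 1.54) and 0.226 to 11.5 scaled CPM in input (median 6.60). The fractions were apart in 4 of 5 ages, and 6 of 11 IP libraries reached 1 scaled CPM. It was 2.44-fold lower in IP (log2 change -1.29 ± 0.40 SE; limma, adjusted p = 0.0134). Psmb9, the counterpart of Psmb6, had 0 to 7.68 scaled CPM in IP (median 1.81) and 0.0903 to 5.84 scaled CPM in input (median 3.59). Its ranges overlapped and it was not called (log2 change -0.74 ± 0.39 SE; limma, adjusted p = 0.134), and 5.79% of its exon bases overlap Tap1 on the opposite strand. DESeq2 called Psmb9 lower (log2 change -1.83, adjusted p = 0.0445), as did limma without the second P14 IP library (-1.03, adjusted p = 0.0175). Psmb10, the counterpart of Psmb7, had 4.70 to 38.3 scaled CPM in IP (median 11.9) and 9.51 to 26.9 scaled CPM in input (median 18.4). It was not called either (log2 change -0.34 ± 0.28 SE; limma, adjusted p = 0.349). Psmb11, the catalytic subunit of the thymus, stayed below 1 scaled CPM in all 11 IP libraries.

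The share of inducible subunits among the catalytic ones was compared as a description. Per kilobase of exon, Psmb8, Psmb9 and Psmb10 together made up 7.73% to 29.4% of the 6 catalytic subunits in IP libraries (median 20.8%), against 4.24% to 13% in input libraries (median 11%). The lowest IP share, in the first P8 IP library, lay within the input range, and the others lay above it. Psmb9 had a median share of 2.47% of its pair with Psmb6 in IP and 1.76% in input. Psmb10 had a median share of 40.6% of its pair with Psmb7 in IP and 21.9% in input. How much each pair added to the summed share was not computed. Psmb10 itself averaged 15.5 scaled CPM in IP and 18.3 in input, and Psmb7 averaged 35.1 in IP and 151 in input. The size of these shares depends on the annotated exon length, 1705 bases for Psmb10 and 3421 for Psmb7. The shares of Psmb8 in its pair with Psmb5 had medians of 7.76% in IP and 8.18% in input. Immune cells express the inducible subunits strongly. Of 10 macrophage markers 8 were lower in IP (summed level 57.4 to 206 scaled CPM in IP, 158 to 280 in input). Of 10 neutrophil markers 8 were lower (4.43 to 153 in IP, 11.6 to 366 in input). Of 7 tested lymphocyte markers 0 were called (5.85 to 76.6 in IP, 8.56 to 77.9 in input, with Cd3d at 0 in all IP libraries). Among all genes tested 21.2% were lower and 19% higher. Of 8 erythroid markers 6 were lower (75.7 to 1021 in IP, 365 to 2299 in input), and of 7 endothelial markers 3 were higher and 3 lower (235 to 893 in IP, 311 to 509 in input). The part of these cells in the proteasome results was not tested.

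**Figure D2:**
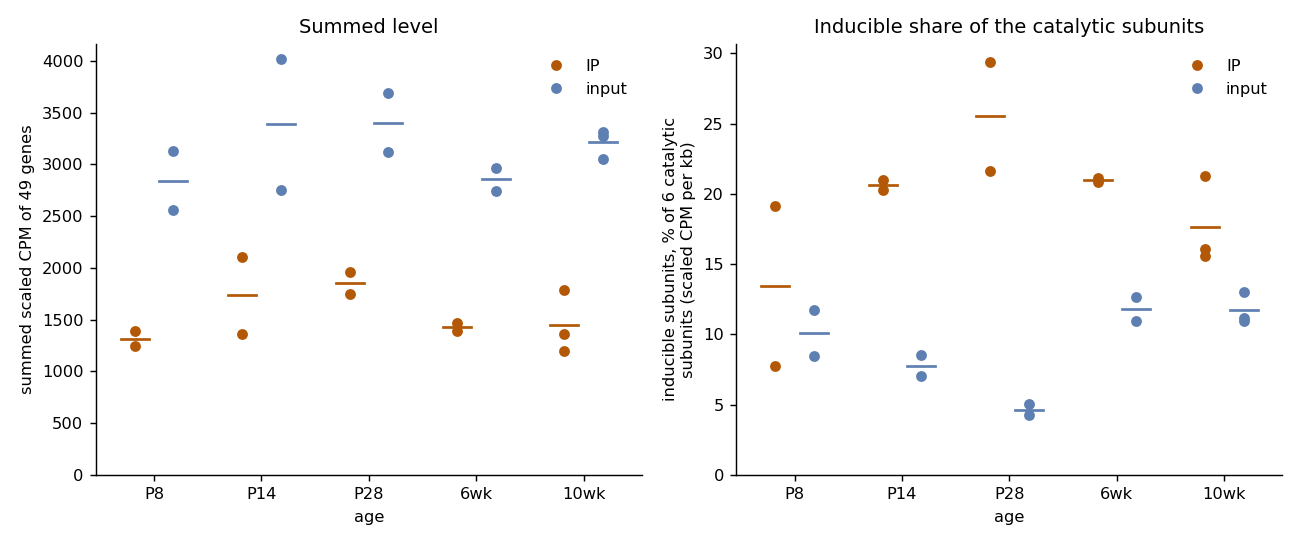
Left, summed scaled CPM of the 49 proteasome genes in each library by age; right, the percentage of the 6 catalytic subunits, per kilobase, that came from the inducible Psmb8, Psmb9 and Psmb10. Points are libraries, IP left of input at each age, and lines are means; the IP sums end at 2109 and the input sums start at 2557, although as an unscaled share of gene reads the second P8 input library, at 0.0848%, lies below every IP library, while the inducible share runs from 7.73% to 29.4% in IP and from 4.24% to 13% in input.

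The regulatory cap was lower in IP in nearly all its genes. All 6 ATPase genes, which encode the unfolding ring, were lower. Psmc3 had the lowest change, with 33.0 to 82.1 scaled CPM in IP (median 43.2) and 115 to 218 scaled CPM in input (median 183). These ranges did not overlap, and the level was 3.47-fold lower in IP (log2 change -1.79 ± 0.17 SE; limma, adjusted p = 3.00e-08). Psmc6 had the smallest change, with 15.1 to 53.9 scaled CPM in IP (median 25.9) and 37.6 to 88.6 scaled CPM in input (median 61.2). For it, 8 of 11 IP libraries lay below every input library, and the level was 1.99-fold lower in IP (log2 change -0.99 ± 0.21 SE; limma, adjusted p = 0.000561). Psmc5, Psmc2, Psmc4 and Psmc1 lay between them, at log2 changes of -1.45, -1.24, -1.18 and -1.05.

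Of the 11 non-ATPase genes of base and lid, 10 were lower in IP and 1 was not called. Psmd14, the deubiquitinase of the lid, had 0.303 to 38.8 scaled CPM in IP (median 9.17) and 24.9 to 73.4 scaled CPM in input (median 49.7). Within each age all IP values were below all input values, and the lowest was that of the second P28 IP library. It was 4.58-fold lower in IP (log2 change -2.20 ± 0.40 SE; limma, adjusted p = 0.000118). Psmd11, a scaffold subunit of the lid, did not follow, with 18.2 to 185 scaled CPM in IP (median 52.0) and 23.5 to 60.5 scaled CPM in input (median 47.1). Its highest value was again in the first P14 IP library, and its log2 change of 0.18 ± 0.24 SE was not called (limma, adjusted p = 0.590). The scaffolds Psmd1 and Psmd2, at log2 changes of -1.61 and -1.13, and the ubiquitin receptor Psmd4, at -1.14, were lower. Among single ages Psmd1 was called at P28 only, with 0.693 scaled CPM in the second P28 IP library and 48.3 in the first. Its log2 change was -3.61 at P28 and -1.37 to -0.92 at the other ages. The lid subunit Psmd12, at -1.74, also fell.

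Activators and the inhibitor differed among themselves: 4 of the 6 genes were lower, 1 was higher and 1 was not called. Psme1, the alpha subunit of the interferon-inducible activator, had 0.0433 to 22.1 scaled CPM in IP (median 11.6) and 26.5 to 62.8 scaled CPM in input (median 43.7). No IP library reached the input range, and the level was 3.68-fold lower in IP (log2 change -1.88 ± 0.36 SE; limma, adjusted p = 0.00019). Psme4, which encodes a large activator that caps the core without ubiquitin or ATP, had 67.6 to 130.4 scaled CPM in IP (median 109.9) and 35.2 to 89.6 scaled CPM in input (median 65.5). It was higher in all IP libraries than in all input libraries at P14, P28, 6 weeks and 10 weeks, and the fractions overlapped at P8. At P14 the second IP library had 71.3 scaled CPM and the second input library 71.2. At no single age was Psme4 called. Psme4 was 1.52-fold higher in IP (log2 change 0.60 ± 0.16 SE; limma, adjusted p = 0.00492). Psme3, the nuclear activator, at a log2 change of -0.49, and Psmf1, the inhibitor, at -0.67, were called lower, but stayed called in only 15 and 11 of 31 alternative settings. The partner of Psme1 is measured with less certainty, since Psme2 and its near-copy Psme2b can share reads: Psme2b fell, with a log2 change of -1.25, and Psme2 had 0.02 and was not called.

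**Figure D3:**
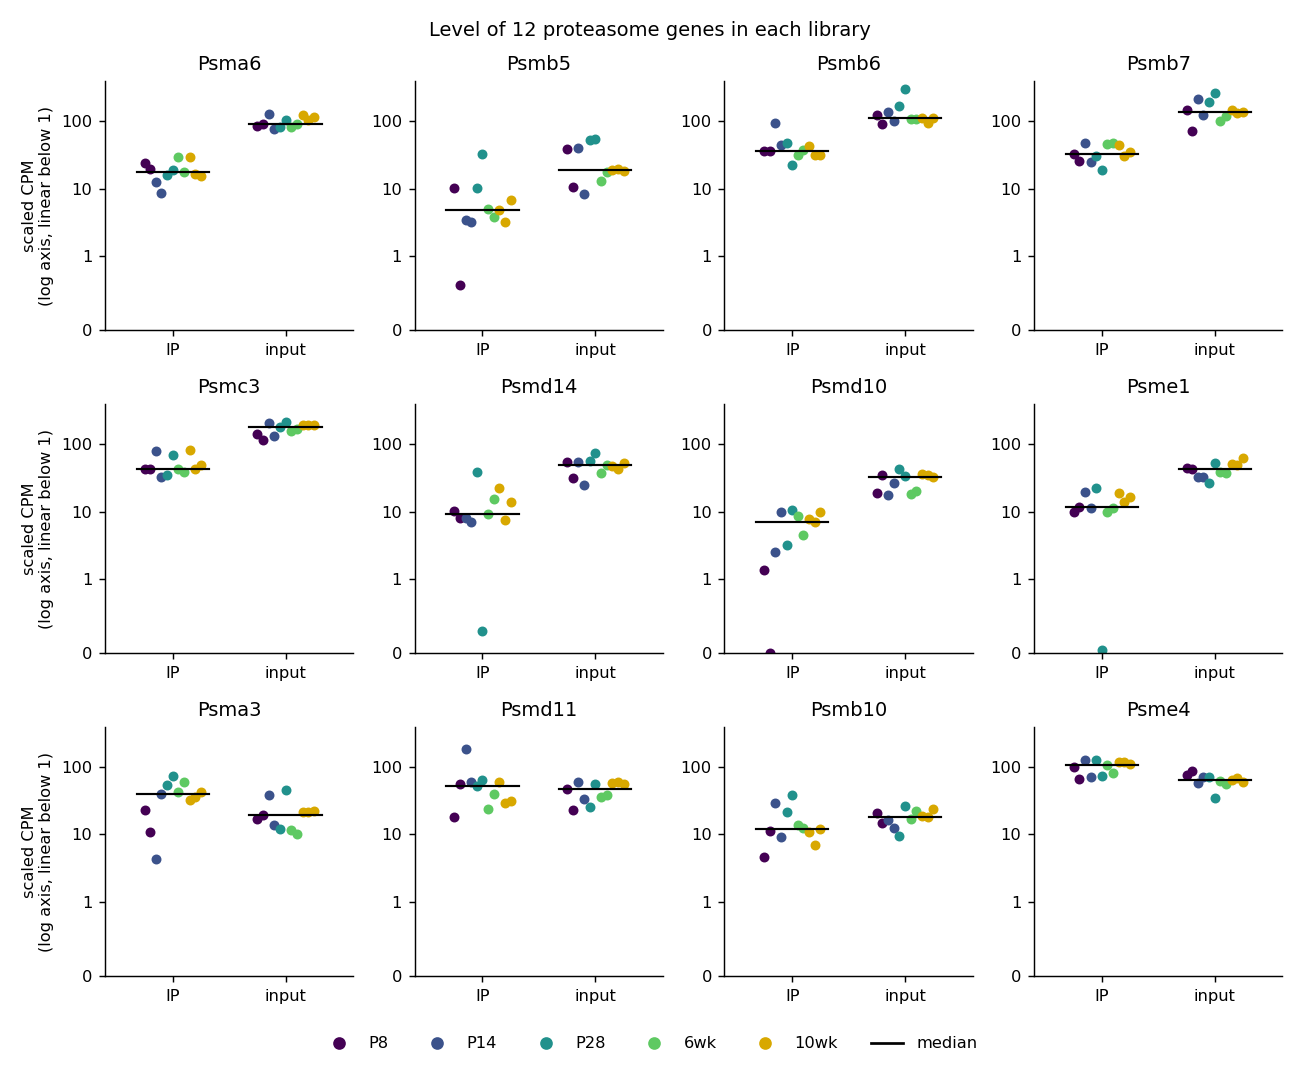
Scaled CPM of 12 proteasome genes in each of the 22 libraries, on a logarithmic axis that is linear below 1, with IP left and input right; colours mark age and bars the median of 11 libraries. Psma6, Psmb7, Psmc3, Psmd10 and Psme1 have no overlap between fractions, and Psme4 has a median of 109.9 in IP and 65.5 in input.

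Assembly chaperones hold precursor rings together and leave the finished particle. Of 7 genes, 4 were lower in IP and 3 were not called. Psmd10, also known as gankyrin, which escorts the ATPase subunit encoded by Psmc4, had 0 to 10.4 scaled CPM in IP (median 6.97) and 17.6 to 43.3 scaled CPM in input (median 33.0). The ranges did not overlap, and the second P8 IP library held 0 reads. With a log2 change of -2.39 ± 0.30 SE it was the lowest of the 50 genes, 5.25-fold lower in IP (limma, adjusted p = 1.19e-06). Psmd9, a chaperone of another ATPase module, had 13.8 to 76.0 scaled CPM in IP (median 24.5) and 14.1 to 39.4 scaled CPM in input (median 28.8). It was not called over all ages (log2 change 0.02 ± 0.19 SE; limma, adjusted p = 0.930), and 25.5% of its exon bases overlap a long noncoding RNA on the opposite strand. Psmg4, at -1.37, Psmg2, at -0.90, and Psmd5, at -0.70, were lower, whereas Psmg1, at -0.77, and Psmg3, at -0.07, were not called; without the second P28 IP library Psmg1 was called lower (-1.20, adjusted p = 0.0264). Psmg4 was not called without the 3 libraries of low yield (limma, adjusted p = 0.0717), nor Psmg2 by edgeR (adjusted p = 0.0691) or by limma without the first 6-week input library (adjusted p = 0.0645). Psmc3ip, the gene outside the complex, was lower as well, at a log2 change of -1.46, and 21.2% of its exon bases overlap Mlx on the opposite strand.

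Levels per kilobase of exon differed widely between subunits that share one particle, and these levels depend on the annotated exon length. In IP, Psmb4, with 43.2 ± 27.5, and Psmc5, with 36.2 ± 10.5 scaled CPM per kilobase, led the order, and their difference was within the spread. In input, Psmc5 had the highest level, 98.3 ± 19.2 scaled CPM per kilobase, followed by Psmb4, with 88.8 ± 23.5, and Psma6, with 80.0 ± 15.1 (SD, n = 11 each), again within the spread from one to the next. Psma6 had rank 13 in IP and rank 3 in input. The SD over the 14 standard core genes of log2 scaled CPM per kilobase was 1.48 ± 0.69 in IP and 1.51 ± 0.27 in input (mean ± SD of 11 libraries each), a difference smaller than the spread between libraries.

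Position and transcript length were compared with the changes as descriptions. In 3 places 2 of the genes neighbour each other within 10 kb: Psmb5 and Psmb11 on chromosome 14, Psme1 and Psme2 on chromosome 14, and Psmb9 and Psmb8 on chromosome 17. Their log2 changes, IP over input, were -1.89 and -0.34, -1.88 and 0.02, and -0.74 and -1.29, so neighbours did not share a value. Across the 50 genes, which share libraries, Spearman's rho between exon length and log2 change was 0.32; across 15383 protein-coding genes tested it was 0.36. The median exon length was 2804 bases for the 50 genes and 4374 bases for the protein-coding genes. Exons of 15 of the 50 genes overlap another annotated gene. Genes called lower were among them. The overlap took 14.7% of exon bases in Psmb8, 12.1% in Psmb5, 11.8% in Psmb7 and 10.1% in Psmd13.

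At each single age more genes were lower than higher in IP, with fewer called in these groups of 2 or 3 libraries. At P8, 14 of 50 genes were lower in IP (4.23% of all genes tested), at P14 17 (7.32%), at P28 18 (11.5%), at 6 weeks 11 (3.73%) and at 10 weeks 18 (8.46%). The single gene called higher at any age was Psmd9 at P28, with 37.5 and 76.0 scaled CPM in IP and 14.1 and 21.7 scaled CPM in input (log2 change 1.56; limma, adjusted p = 0.0152; 8.76% of all genes tested were higher at P28). This call was lost with CPM as deposited (adjusted p = 0.281), with only the P28 libraries (0.328), without the first P28 input (0.0893) or the second P28 IP library (0.136), and without the libraries of low yield (0.102). The median log2 change of the 50 genes was -1.19 at P8, -1.07 at P14, -0.93 at P28, -0.96 at 6 weeks and -1.12 at 10 weeks, with medians over all genes between -0.04 and 0.03. Below 0 were 47 of 50 genes at P8, 43 at P14, 38 at P28, 46 at 6 weeks and 47 at 10 weeks. Among all genes tested the shares below 0 were 50.2%, 47.9%, 49.6%, 51.6% and 48.4%. With CPM as deposited, the median at P8 turned to 0.055, with 0.74 over all genes, and 23 of 50 genes were below 0; the number of genes called was 0 at P8, 4 at P14, 9 at P28, 0 at 6 weeks and 3 at 10 weeks. The counts at P8, P14 and 6 weeks also moved when 1 library was left out, which left 1 library in a group. Shares of all genes called were not set beside these counts or those with CPM as deposited. No result particular to the 50 genes is therefore read from them.

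Psma6, Psmc3 and Psmc5 were lower at all 5 ages. Psma6 had 24.1 and 19.3 scaled CPM in IP at P8, against 84.4 and 90.8 in input, and 12.5 and 8.69 scaled CPM in IP at P14, against 131 and 76.0 in input. At P28 it had 15.8 and 18.8 scaled CPM in IP and 81.6 and 104 in input; at 6 weeks, 29.1 and 17.4 in IP and 81.5 and 91.8 in input; at 10 weeks, 29.8, 16.4 and 15.4 in IP and 124, 106 and 115 in input. Its log2 changes were -1.97, -3.14, -2.35, -1.89 and -2.49 in the order of age. Psma7, Psmb6, Psmb7, Psmc2, Psmc4 and Psmd12 were lower at 4 ages. Psmd10 had its lowest IP values at P8, with 1.37 and 0 scaled CPM in IP and 18.9 and 35.1 scaled CPM in input (log2 change -4.12; limma, adjusted p = 0.000679).

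**Figure D4:**
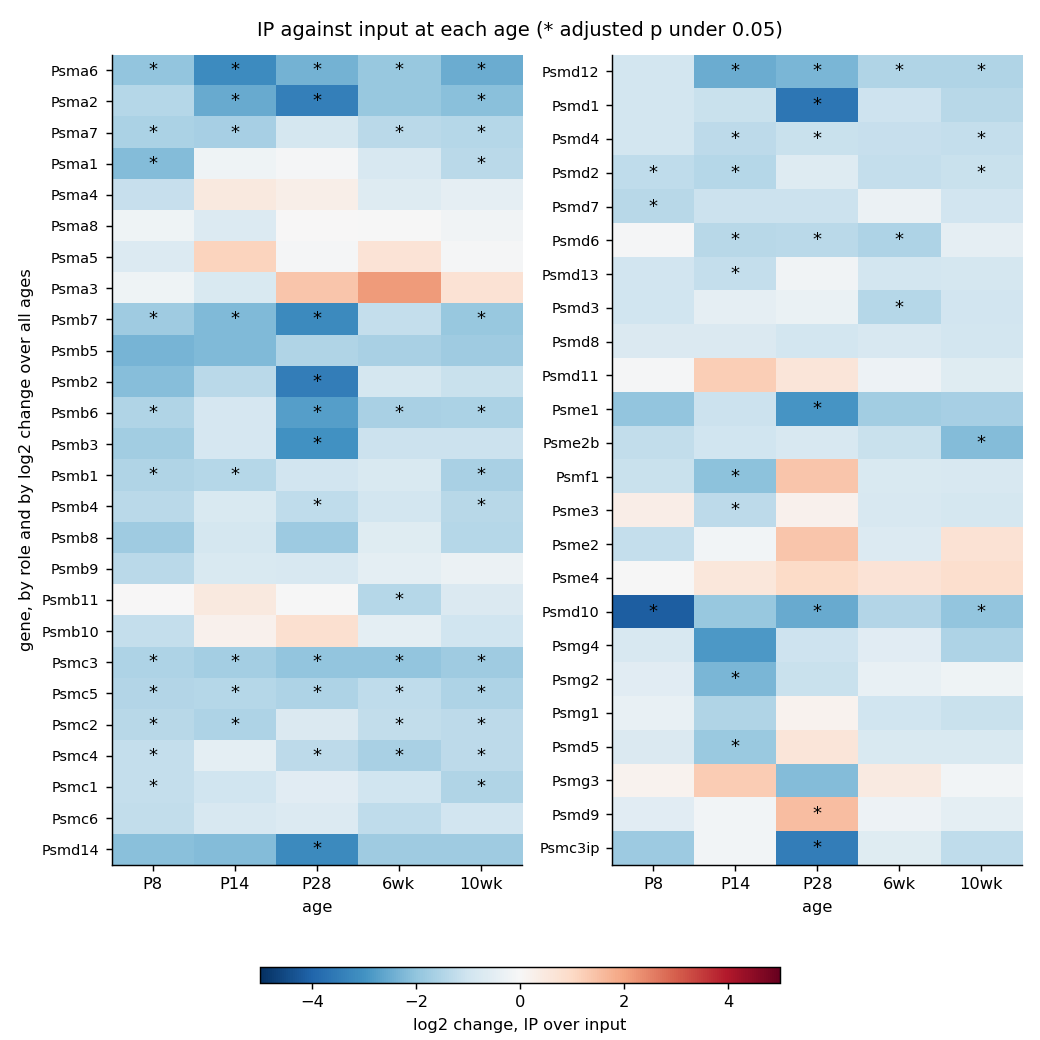
Log2 change, IP over input, of each gene at P8, P14, P28, 6 weeks and 10 weeks (blue, lower in IP; red, higher in IP), with an asterisk at an adjusted p under 0.05. Psma6, Psmc3 and Psmc5 carry an asterisk at all 5 ages. At single ages 38 to 47 of 50 genes are below 0, beside 47.9% to 51.6% of all genes tested. With CPM as deposited, 23 of 50 are below 0 at P8.

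Whether the difference between fractions varied among the 5 ages was tested directly. In limma's F-test 0 of 50 genes differed between ages at an adjusted p under 0.05, where 0.0942% of all genes tested did. An unadjusted p under 0.05 was found for 7 of 50 genes and for 12% of all genes tested. The smallest adjusted p among the 50 genes was 0.264, for Psmf1. The second P28 IP library stood apart in several subunits, with 0.303 scaled CPM of Psmd14 and 0.0433 scaled CPM of Psme1, where the first P28 IP library had 38.8 and 22.1 scaled CPM. Without this library 39 of 50 genes were called over all ages, and without the 3 libraries of low yield 38 were, 36 of them among those called with all libraries.

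The last question was whether proteasome transcripts differ between adult and young cochleae. The tamoxifen dose also changed at 21 days of age. Dose and age cannot be told apart in these contrasts, in IP or in input. Between adult (6 and 10 weeks) and young (P8 and P14) IP libraries 0 of 50 genes were called, where 3.65% of all genes were higher and 4.83% lower in adult; 2 of 50 had an unadjusted p under 0.05, as did 24.2% of all genes. By DESeq2 1 gene was called and by edgeR's quasi-likelihood test 0. The median log2 change, adult over young IP, was 0.19 over the 50 genes and 0.06 over all genes. Psma3 had the largest change, 1.49 (limma, adjusted p = 0.0609), with 42.9 and 60.4 scaled CPM in IP at 6 weeks and 32.5, 35.7 and 43.2 at 10 weeks, against 22.9 and 10.9 at P8 and 4.28 and 40.2 at P14. Psmd10 followed with 1.40 (limma, adjusted p = 0.067), and DESeq2 called this gene (log2 change 1.89, adjusted p = 0.0239). Without the second P14 IP library 5 of 50 genes were called, beside 20.7% of all genes tested: Psma3 and Psmd10 were higher in adult IP, and Psmb4, Psmd3 and Psmd11 were lower; the P14 IP group then rests on its first library, one of low yield. Without the first P8 IP library 1 gene was called, beside 7.94% of all genes, Psmd10 (log2 change 1.71, adjusted p = 0.0424).

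In input, 1 of 50 genes was called between adult and young libraries (2.79% of all genes were higher and 1.81% lower in adult). This was Psmb11, with 3.14 and 1.70 scaled CPM at 6 weeks and 1.88, 0.963 and 0.524 scaled CPM at 10 weeks, against 0 reads in all 4 young input libraries. The fitted log2 change of Psmb11, adult over young input, was 1.39, or 2.62-fold (limma, adjusted p = 0.00574). The adult mean of 1.64 ± 1 scaled CPM (SD, n = 5) was at least 66.7-fold higher than the floor of 3 reads over the young input libraries together, 0.0246 scaled CPM. This second fold depends on the chosen floor. The call was lost with CPM as deposited, and the gene remained the least abundant of the 50 per kilobase in both fractions. The change of the IP-to-input difference between adult and young was called in 0 of 50 genes by limma, edgeR and DESeq2, and of all genes 0.0248% were called higher and 0.0397% lower by limma; 2 of 50 and 8.39% of all genes had an unadjusted p under 0.05. Without the second P14 IP library 1 of 50 genes, Psma3, was called (log2 change 2.63, adjusted p = 0.0159), as were 3.52% of all genes.

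Genes that work with the proteasome were described over all ages from fixed lists, beside 21.2% of all genes tested called lower and 19% higher. Of 9 other proteasome parts and bound factors, 4 were lower in IP and 1 was higher. Pomp, the maturation factor of the core, averaged 25 ± 7.64 scaled CPM in IP and 129 ± 25 in input, and Sem1, a small lid subunit, 35.7 ± 29.3 in IP and 103 ± 35.4 in input (SD, n = 11 each). Their log2 changes were -2.35 and -1.69, and the deubiquitinases Uchl5 and Usp14, at -1.64 and -0.93, were also lower. Zfand5, a proteasome-binding zinc finger protein, was higher, at 0.58, and Adrm1, a ubiquitin receptor of the cap, had 0.85 and was not called (limma, adjusted p = 0.0589).

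Of 6 regulators of proteasome genes, 3 were lower and 2 higher in IP, beside 21.2% and 19% of all genes tested. Nfe2l1, the transcription factor of the bounce-back response to proteasome inhibition, averaged 319.6 ± 98.0 scaled CPM in IP and 564 ± 137 in input (SD, n = 11 each), a log2 change of -0.78. Ngly1, which deglycosylates Nfe2l1, at -1.11, and Keap1, at -0.54, were also lower. Ddi2, the protease that cleaves Nfe2l1, averaged 274 ± 61.3 in IP and 104 ± 18.9 in input, a log2 change of 1.41, and Bach1, a repressor at antioxidant response elements, 186 ± 76.5 in IP and 33.6 ± 11.5 in input, a log2 change of 2.4. Nfe2l2 had 0.22 and was not called.

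Transcripts of ubiquitin, shuttle and antigen processing genes were lower in IP in part, where 21.2% of all genes tested were lower and 19% higher. Of 6 ubiquitin genes and activating enzymes, 3 were lower and 0 higher. The polyubiquitin gene Ubb, at a log2 change of -2.02, and the activating enzyme Uba1, at -1.33, were lower. Uba6, at 0.89, and Rps27a, at 0.87, were not called. Of 9 shuttle and segregase factors, 7 were lower and 0 higher. The segregase Vcp, at -1.10, was lower, and Nploc4, at 0.02, and Ubqln4, at 0.07, were not called. Of 10 antigen processing genes, 5 were lower and 2 higher. B2m, the light chain of class I molecules, averaged 40.3 ± 16.1 scaled CPM in IP and 278 ± 79.8 in input (log2 change -2.81), whereas Irf1, a transcription factor that induces the immunoproteasome genes, averaged 65.0 ± 62.5 in IP and 12.8 ± 7.39 in input (log2 change 2.15; SD, n = 11 each). Nlrc5, the transactivator of class I genes, was higher at 1.37. The median log2 changes of the 5 lists were -0.51 for other proteasome parts, -0.16 for regulators, -0.76 for ubiquitin genes, -1.04 for shuttle factors and -0.73 for antigen processing, beside 0.00 over all genes.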

How the data were processed

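Per the labels' protocols, directional libraries (NEBNext Ultra Directional) were made from HA immunoprecipitates and from input RNA of mouse cochlea. Per the submitters' processing notes, TopHat and GRCm38 were used; the counting tool, strand setting and all versions are not stated there. The deposited values are CPM per all reads of a library, including 5 entries that name no gene, which took 32.9% to 72.3% of the reads. The deposited CPM are whole multiples of 1 read, so whole reads were recovered (100% of values within 0.01 of a whole number); 1 read was worth 0.0141 to 0.0325 CPM. Symbols and exon lengths come from GENCODE M21, matched for 49326 of 49671 identifiers.

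Reads per gene were divided by the gene reads of the library times its TMM factor (edgeR 4.0.16). TMM replaced the deposited scale because shares of non-gene reads and of a gene overlapping ribosomal RNA differ between libraries. Genes with at least 1 scaled CPM in at least 2 libraries (20176) entered limma 3.58.1 (R 4.3.3, trended prior, two-sided) on log2(scaled CPM + 1), with 1 mean per age and fraction over 22 libraries, and Benjamini-Hochberg adjusted p under 0.05 called a gene. Contrasts were IP minus input (mean of 5 ages, and each age alone), adult minus young within each fraction, and the change between them. Alternatives were CPM as deposited, quantile normalization, a pseudocount of 0.25, no filter, edgeR's quasi-likelihood test and DESeq2 1.42.0 on the recovered reads, fits on only the libraries compared, a replicate block, and leaving out each of 22 libraries; leaving out 3 libraries of low yield and the F-test between ages were added after seeing the data. The fits were tested on simulated data.

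The genes and lists were chosen with earlier results of these data known. Full values are given for the genes with the lowest and highest change over all ages in each role, the 6 catalytic subunits, and up to 5 called genes per age contrast; the values of other genes named between ages, and those of libraries that stood apart, were chosen after they were seen. Sums, shares and levels per kilobase were computed from scaled CPM with numpy 2.4.6 and pandas 2.3.3 in Python 3.11.15.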

Additional observations from a re-analysis of the deposited data

How the results depend on the processing

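Over all ages 38 of the 50 genes were called: 27 genes were called with CPM as deposited, 36 to 39 in the other alternatives that keep all libraries, 38 without the 3 libraries of low yield, and 35 to 39 when 1 library was left out. No gene called over all ages changed direction in any of the 31 settings. CPM as deposited moved the median log2 change of all genes to 0.13 over all ages, 0.74 at P8, -0.28 at P14, 0.27 at 6 weeks, 0.29 between adult and young IP, 0.42 between adult and young input and -0.15 for the change between them. Under it 0 genes were called at P8, 4 at P14, 9 at P28, 0 at 6 weeks, 3 at 10 weeks and 0 between adult and young input, against 14, 17, 19, 11, 18 and 1, and at P8 the log2 changes of Psmc1 (0.16), Psmc4 (0.16) and Psmd2 (0.074) reversed; the median of the 50 genes there was 0.055. Quantile normalization called 22 genes at P8, 17 at 6 weeks and 2 between adult and young IP; DESeq2 called 17 at 6 weeks and 1 between adult and young IP; a pseudocount of 0.25 called 1 there. Fits on only the libraries compared called 4 at P14, 3 at P28, 33 at 6 weeks, 39 at 10 weeks and 3 between adult and young input, and of all genes these fits, with fewer samples, called 6.95%, 4.11%, 36.6%, 45.9% and 21.3%. Without the libraries of low yield 24 were called at P8, 22 at 6 weeks, 29 at 10 weeks and 1 between adult and young IP. Leaving out 1 library gave 2 to 10 genes at P8, 4 to 17 at P14, 13 to 21 at P28, 0 to 3 at 6 weeks, 13 to 19 at 10 weeks, 0 to 5 between adult and young IP, 1 in input and 0 to 1 for the change; where it left 1 library in a group, that library was assumed to vary like the others. The cause of these shifts was not tested. In this section shares of all genes are given only for the fits on the libraries compared. The other counts therefore do not tell a shift of the 50 genes from a change of calls over all genes. The replicate block, with IP and input of the same number as a pair, called 37 genes over all ages and 14, 18, 18, 10 and 19 at the 5 ages; deviations of same-numbered libraries correlated at 0.0398 to 0.293, with 5 of 11 pairs over 0.1, so the numbers were not taken to pair the libraries. Low depth limits Psmb8, Psmb9, Psmb11, Psma8 and Psme2, whose values in single libraries rest on few or 0 reads.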
